A study of Mus musculus with 36 samples.

Results

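The genes described here encode complement and coagulation factors measured in mouse liver. Members were chosen by name: 34 genes were listed, and a gene entered when the annotation of the array gave a probe its symbol. This found 33 of 34 genes on 52 probes, of 16593 named genes on 25697 probes in the series. The other listed gene was not analysed here. For the 12 genes with several probes the brightest probe was used, by its mean over all arrays. All 33 genes passed the filter on dim probes, which kept 12289 probes. Of these 33 genes, 14 were complement members of 15 listed and 19 were coagulation members of 19 listed.

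Livers came from 36 male C57BL/6J mice aged 9 weeks, and each liver's total RNA was read on 1 Illumina MouseRef-8 v2.0 array. A group name gives the maternal diet and then the post-weaning diet, each either high (HF) or low (LF) in fat. HF_HF held 10 mice from 4 cages: dam and pup ate HF. HF_LF held 9 mice from 5 cages: the dam ate HF and the pup LF. LF_HF held 8 mice from 4 cages: the dam ate LF and the pup HF. LF_LF held 9 mice from 4 cages: dam and pup ate LF. Dams ate their diet from before mating until weaning. According to the study, the HF diet was also low in carbohydrate, so fat and carbohydrate cannot be told apart. Pups of 1 labelled cage always shared the maternal diet, so differences between the 12 cages (6 per maternal diet) and between maternal diets are partly mixed. Several cages also held mice of a single post-weaning diet, so cages and post-weaning diets are partly mixed too. The labels name no other treatment or allele.

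Complement is a cascade of plasma proteins that marks and lyses microbes. It starts from antibody (classical pathway), from sugars bound by mannose-binding lectins (lectin pathway) or by slow self-activation (alternative pathway), and it ends in a pore, the membrane attack complex. Coagulation is a second protease cascade, in which prothrombin becomes thrombin and thrombin cuts fibrinogen into the fibrin of a clot. Anticoagulants restrain it, and plasmin dissolves the clot. Hepatocytes make most of these proteins, and several of them are acute phase proteins, which the liver makes in larger amounts during inflammation.

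Promoter sequence could be shown for part of the members. Of the 33 genes, 25 had a promoter of 300 bases in RefSeq (GRCm38.p6), from 250 bases before the start of transcription to 50 after it (26 promoters in all). The 7 promoters below were all chosen from members that differed between HF_HF and HF_LF livers, as described further on. They belong to terminal complement genes that rose in HF_HF livers (C6, C8a, C8b and C9), to the member that fell (Mbl2) and to clotting genes that rose (F11 and Fgg). Capitals mark every match to 4 motifs on either strand: CTGGGAA, known from acute phase genes that respond to interleukin signals; TTCNNNGAA, the STAT motif; TTGCNNAA, a C/EBP motif; and GTTAAT, part of the HNF1 motif. None of the matches marked below overlapped.
C6 (chr15:4726960-4727259, plus strand): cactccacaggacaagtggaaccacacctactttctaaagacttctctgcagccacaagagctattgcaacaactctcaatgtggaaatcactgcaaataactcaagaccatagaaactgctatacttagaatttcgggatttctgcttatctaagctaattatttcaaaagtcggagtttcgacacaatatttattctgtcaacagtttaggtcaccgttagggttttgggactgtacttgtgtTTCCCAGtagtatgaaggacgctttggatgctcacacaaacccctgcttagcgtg
C8a (chr4:104876349-104876648, minus strand): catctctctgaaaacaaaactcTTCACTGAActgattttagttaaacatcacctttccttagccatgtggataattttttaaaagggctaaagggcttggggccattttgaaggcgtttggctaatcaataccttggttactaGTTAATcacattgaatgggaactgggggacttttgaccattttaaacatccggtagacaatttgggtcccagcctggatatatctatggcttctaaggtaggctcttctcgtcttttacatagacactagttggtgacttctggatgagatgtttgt
C8b (chr4:104766067-104766366, plus strand): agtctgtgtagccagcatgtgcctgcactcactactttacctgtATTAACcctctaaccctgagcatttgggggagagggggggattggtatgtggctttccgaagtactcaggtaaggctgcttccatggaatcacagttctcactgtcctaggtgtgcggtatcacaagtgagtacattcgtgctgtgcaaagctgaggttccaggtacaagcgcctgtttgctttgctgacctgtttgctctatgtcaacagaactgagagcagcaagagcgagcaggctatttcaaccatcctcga
C9 (chr15:6445096-6445395, plus strand): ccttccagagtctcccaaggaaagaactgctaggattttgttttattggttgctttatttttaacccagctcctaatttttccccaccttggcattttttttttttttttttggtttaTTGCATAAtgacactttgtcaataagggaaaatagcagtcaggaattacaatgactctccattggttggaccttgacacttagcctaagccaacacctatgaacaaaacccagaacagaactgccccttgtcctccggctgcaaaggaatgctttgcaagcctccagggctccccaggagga
Mbl2 (chr19:30232678-30232977, plus strand): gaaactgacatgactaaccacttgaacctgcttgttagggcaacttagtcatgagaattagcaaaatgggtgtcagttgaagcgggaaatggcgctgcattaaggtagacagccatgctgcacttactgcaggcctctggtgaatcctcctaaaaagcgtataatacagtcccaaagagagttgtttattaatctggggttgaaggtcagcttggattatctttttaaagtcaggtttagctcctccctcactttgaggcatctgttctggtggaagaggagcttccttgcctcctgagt
F11 (chr8:45261982-45262281, minus strand): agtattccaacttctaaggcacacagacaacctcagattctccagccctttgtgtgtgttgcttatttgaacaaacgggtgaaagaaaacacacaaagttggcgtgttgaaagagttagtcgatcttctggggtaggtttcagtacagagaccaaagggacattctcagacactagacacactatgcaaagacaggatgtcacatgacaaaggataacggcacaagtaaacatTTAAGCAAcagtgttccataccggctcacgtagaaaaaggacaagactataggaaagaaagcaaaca
Fgg (chr3:83007474-83007773, plus strand): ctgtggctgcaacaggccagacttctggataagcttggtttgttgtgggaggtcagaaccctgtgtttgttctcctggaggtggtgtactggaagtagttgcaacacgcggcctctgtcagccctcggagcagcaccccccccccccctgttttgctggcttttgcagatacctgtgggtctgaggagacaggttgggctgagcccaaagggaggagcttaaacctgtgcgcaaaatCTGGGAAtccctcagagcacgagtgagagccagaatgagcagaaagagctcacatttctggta
The C6 match, on the opposite strand, lies across the start of transcription, and the match in Fgg lies just before it. Among the 26 promoters of members, CTGGGAA was found in 5, TTCNNNGAA in 5, TTGCNNAA in 8 and GTTAAT in 7. Of the genes with CTGGGAA, 3 of 5 were among the members that rose or fell after weaning, and of those with TTCNNNGAA 2 of 5. For TTGCNNAA it was 3 of 8, and for GTTAAT 2 of 7. Of all 25 genes with a promoter it was 10. Among all 32851 promoters of the table, 11.1% held CTGGGAA, 8.3% TTCNNNGAA, 10.8% TTGCNNAA and 7.1% GTTAAT. The promoter shown for Mbl2 held none of these letters, which says nothing about the factors themselves. A match is a stretch of letters and was not tested for binding.

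The first question was whether the diet of the pup changed these genes when the dam had eaten HF. In HF_HF livers, 12 members rose and 1 fell relative to HF_LF livers. Terminal complement genes (C6, C8a, C8b and C9), both measured genes of the classical and lectin convertase (C2 and C4b), F11, Fgg and both fibrinolysis genes were among those that rose, by 1.14-fold to 1.46-fold. Mbl2, a lectin that recognizes sugars, was the member that fell. In counts, 6 complement members rose and 1 fell of 14, and 6 coagulation members rose and 0 fell of 19 (limma, adjusted p under 0.05 by Benjamini-Hochberg over 12289 probes). Over all tested probes, 11.3% were called, 5.15% as higher and 6.11% as lower. The median log2 difference was 0.28 for complement members and 0.10 for coagulation members, against -0.01 for all tested probes. With 1 mean per cage and group in place of single mice, 1 complement member (C4b) and 0 coagulation members were called, beside 371 of 12289 probes, against 1384 in single mice. Without cage 21 the counts were 3 and 0 beside 760 probes, and without cage 23 they were 4 and 1 beside 636 probes.

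**Figure D1:**
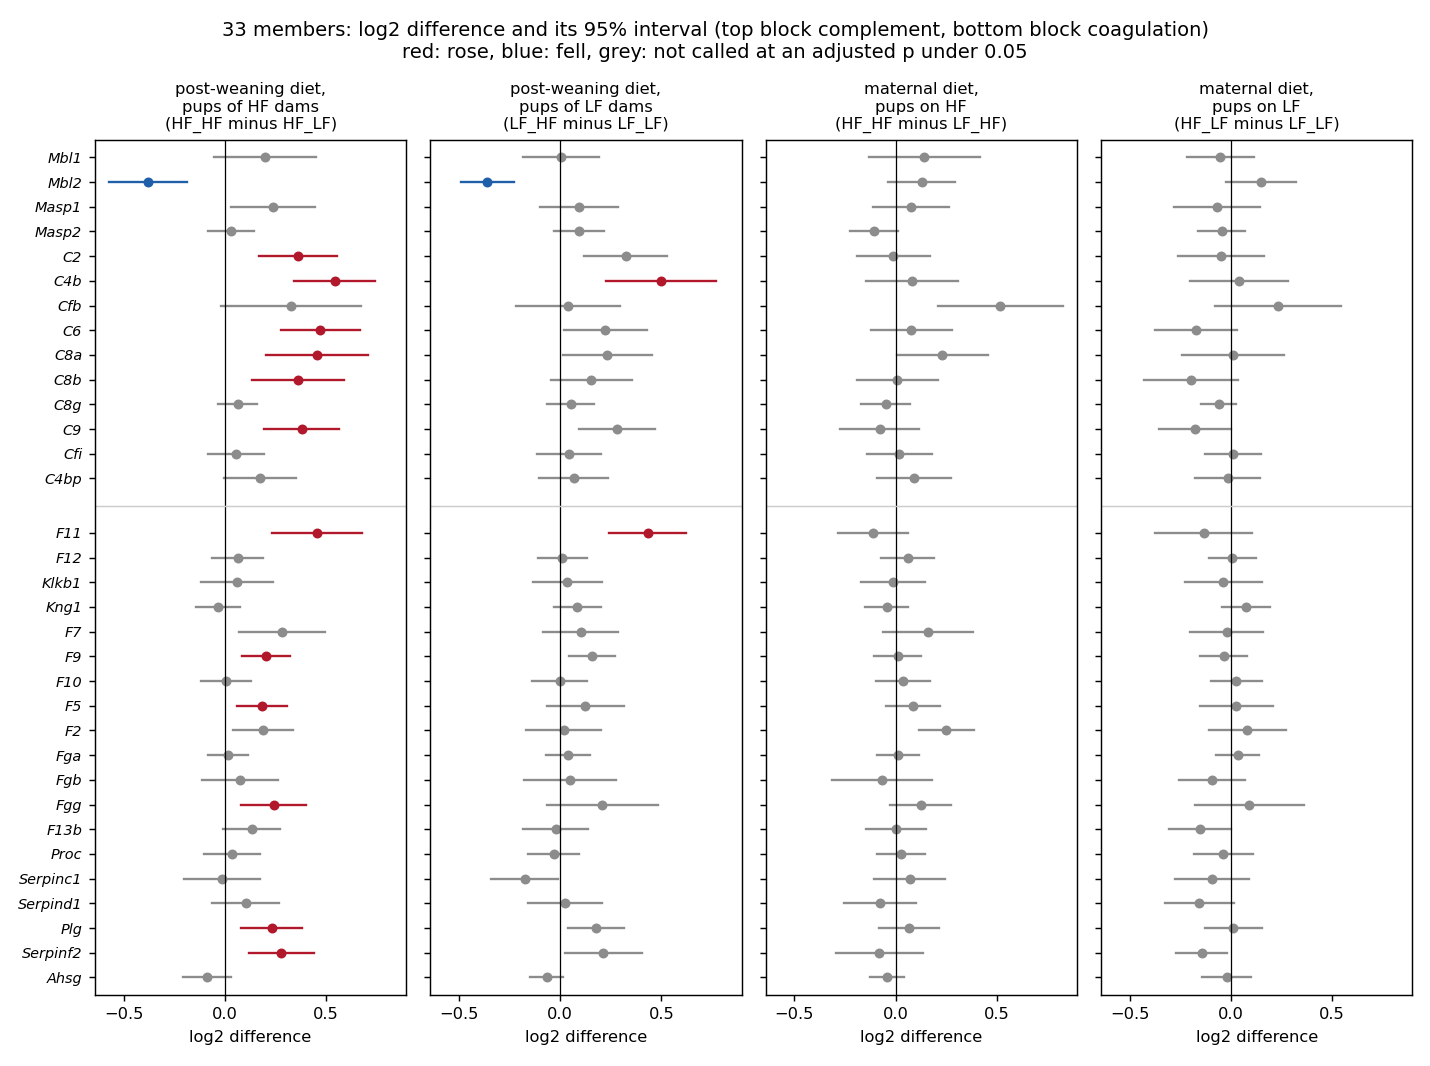
Log2 difference of each of the 33 members in 4 comparisons, with its 95% interval; complement members are in the upper block and coagulation members in the lower one. Red points rose, blue points fell and grey points were not called. The called members lie in both post-weaning panels, and 0 members were called in the maternal panels.

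C4b is part of the convertase of the classical and lectin pathways. Its normalized intensity was 4286 to 7098 (median 5347) in HF_HF mice, against 3024 to 4265 (median 3762) in HF_LF mice. Every HF_HF mouse lay above every HF_LF mouse. Groups that did not overlap were seen at 0.854% of all tested probes in this comparison, and C4b was the one member among them. The log2 difference was 0.54 ± 0.10 (SE, 1.46-fold, adjusted p = 0.000819), and C4b was called under all 11 other settings and in all 25 fits that left out 1 mouse or cage. After maternal LF, C4b was at 4088 to 6247 (median 5136) in LF_HF mice, against 2514 to 5753.5 (median 3721) in LF_LF mice. These ranges overlapped through 1 bright LF_LF mouse, replicate 6, at 5753.5. There the log2 difference was 0.50 ± 0.13 (SE, 1.41-fold, adjusted p = 0.0389), and the call was lost in 14 of 23 fits that left out 1 mouse or cage. Cages 6 and 14 held 1 mouse each, so the fit without that mouse stands in the 23 again as the fit without its cage. Mice have a near-identical neighbour of C4b, the gene C4a, and whether the C4b probe also bound RNA of C4a was not tested.

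C2, the protease that joins C4b in the convertase, was at 2597 to 3828 (median 3075) in HF_HF mice, against 1721 to 3124 (median 2574) in HF_LF mice. All 10 HF_HF mice lay above the HF_LF median, and the ranges overlapped. Its log2 difference was 0.36 ± 0.09 (SE, 1.28-fold, adjusted p = 0.0140). The intensity of C2 was 2394 to 3926.5 (median 3269) in LF_HF mice and 1897.5 to 3073 (median 2483) in LF_LF mice. The log2 difference between these groups was 0.32 (95% interval 0.12 to 0.53, adjusted p = 0.0763), which did not pass the threshold. Cfb, which builds the convertase of the alternative pathway, showed another order of groups. It was at 773 to 2025 (median 1404) in HF_HF, 774 to 2101 (median 977) in HF_LF, 790.5 to 1372.5 (median 882) in LF_HF and 612 to 1189.5 (median 896) in LF_LF livers. HF_HF mice were spread over most of the range, and 1 HF_LF mouse, at 2101, was the brightest of all. Cfb was not called in any comparison. Its log2 difference was 0.32 (95% interval -0.02 to 0.67, adjusted p = 0.240) between HF_HF and HF_LF, and 0.52 (95% interval 0.21 to 0.83, adjusted p = 0.167) between HF_HF and LF_HF.

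The membrane attack complex is built from C6, the 3 chains of C8, C9 and other components. C6, which joins the growing complex before C8, was at 2468 to 3709 (median 3158) in HF_HF mice, against 1721 to 2946 (median 2247) in HF_LF mice. In that comparison 9 of 10 HF_HF mice lay above the highest HF_LF mouse. The log2 difference of C6 was 0.47 ± 0.10 (SE, 1.39-fold, adjusted p = 0.00226), and its second, dimmer probe rose by 0.56 (adjusted p = 0.00218). LF_HF mice were at 2329.8 to 3936 (median 2919.5), against 2081 to 3112 (median 2514) in LF_LF mice, a log2 difference of 0.22 (95% interval 0.02 to 0.43, adjusted p = 0.259).

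C9, which forms the wall of the pore, was at 7816 to 13335 (median 9770.5) in HF_HF mice, against 6726 to 10071 (median 7325) in HF_LF mice. Of the HF_LF mice, 7 of 9 lay below the lowest HF_HF mouse. The log2 difference was 0.38 ± 0.09 (SE, 1.3-fold, adjusted p = 0.00777). Of its 3 probes, a dimmer one at a mean intensity of 1463 also rose (0.50, adjusted p = 0.00565), and one near background at 93.9 gave 0.04 (adjusted p = 0.838). C9 was at 8995 to 12714 (median 10461) in LF_HF mice, against 7233 to 11393 (median 8541) in LF_LF mice. The log2 difference there was 0.28 (95% interval 0.09 to 0.47, adjusted p = 0.0956).

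The 3 chains of C8 did not give the same picture. C8a, the alpha chain, was at 1181 to 2020.4 (median 1659) in HF_HF mice, against 803 to 1650.3 (median 1240.0) in HF_LF mice. C8b, the beta chain, was at 3819 to 5604 (median 4950.4) in HF_HF mice, against 2649 to 4757 (median 4163) in HF_LF mice. Both HF_LF mice of cage 23 were among the 3 lowest of their group for each of these genes. C8a differed by 0.46 ± 0.12 (SE, 1.37-fold, adjusted p = 0.0177) and C8b by 0.36 ± 0.11 (SE, 1.28-fold, adjusted p = 0.0354). The C8b call was lost in 11 of 25 fits that left out 1 mouse or cage. C8g, the gamma chain, which belongs to the lipocalins, was at 9171 to 10917 (median 10415) in HF_HF mice, against 9117 to 10313 (median 9671) in HF_LF mice. Its log2 difference was 0.06 (95% interval -0.03 to 0.16, adjusted p = 0.450), so its interval ended below the estimates of both other chains. The difference between chains was not tested. None of the 3 was called between LF_HF and LF_LF, at log2 differences of 0.23 for C8a, 0.15 for C8b and 0.05 for C8g.

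Mbl2 moved the other way. It encodes mannose-binding lectin C, and its intensity was 1796 to 2957 (median 2379) in HF_HF mice, against 2359.9 to 4080.2 (median 3209.7) in HF_LF mice. With LF dams it was 1931 to 2429 (median 2196) in LF_HF mice, against 2514 to 3261.5 (median 2712) in LF_LF mice. LF_HF mice all lay below LF_LF mice, while HF_HF and HF_LF mice overlapped. Groups that did not overlap were seen at 0.496% of tested probes between LF_HF and LF_LF, and Mbl2 was the one member among them. The log2 difference was -0.38 ± 0.09 (SE, 0.768-fold, adjusted p = 0.00972) in pups of HF dams and -0.36 ± 0.06 (SE, 0.78-fold, adjusted p = 0.00319) in pups of LF dams. It was called in all 23 fits that left out 1 mouse or cage in pups of LF dams, and in pups of HF dams the call was lost only without cage 23 among 25 such fits. Mbl1, the sister gene that encodes mannose-binding lectin A, was not called in either. Its log2 difference was 0.20 (95% interval -0.05 to 0.45, adjusted p = 0.345) in pups of HF dams and 0.00 (95% interval -0.18 to 0.19, adjusted p = 0.991) in pups of LF dams.

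**Figure D2:**
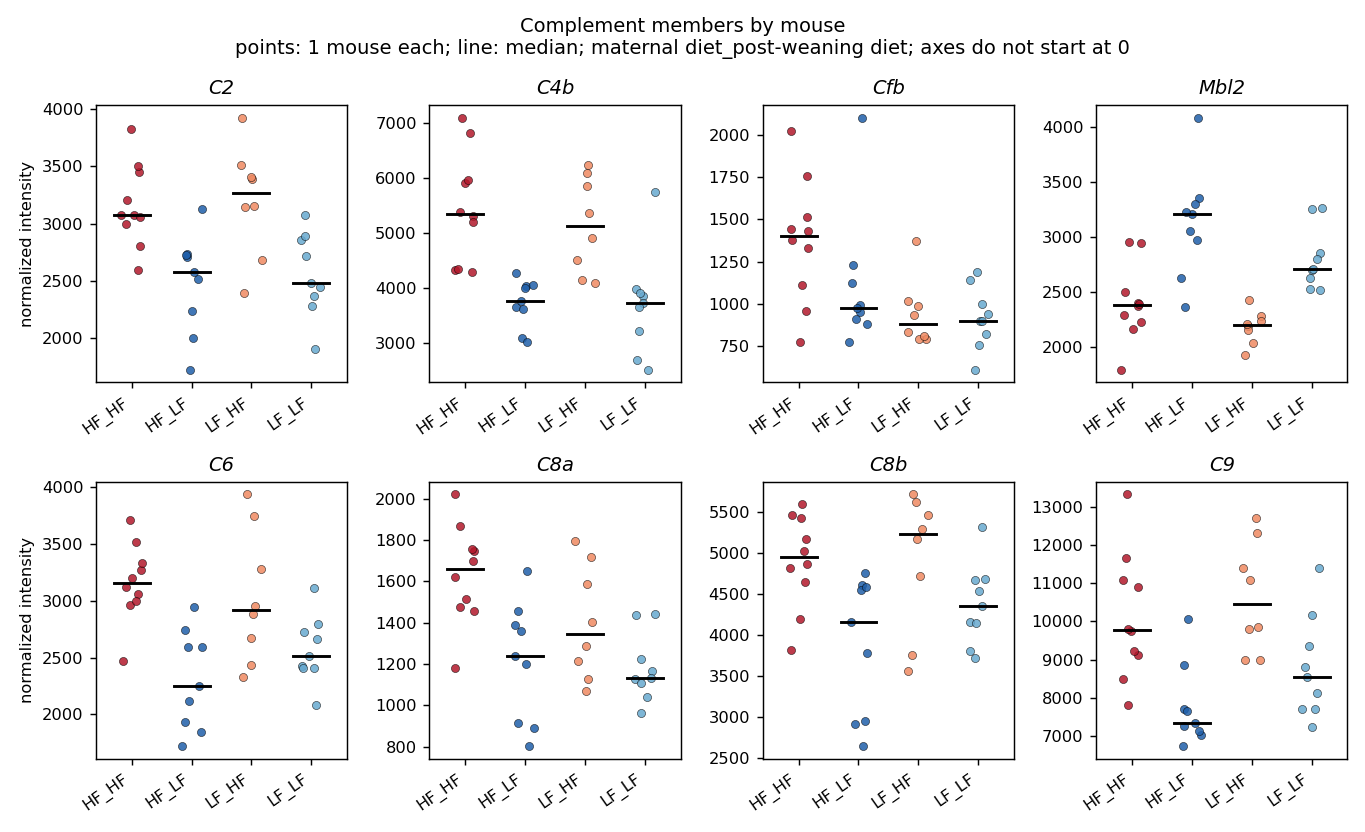
Normalized intensity of 8 complement members in each mouse (points) with the group median (line), for HF_HF, HF_LF, LF_HF and LF_LF; the axes do not start at 0. C4b in HF_HF mice lies above C4b in all HF_LF mice, and Mbl2 in LF_HF mice lies below Mbl2 in all LF_LF mice.

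The other complement members were not called in any comparison. Masp1 and Masp2, the proteases that mannose-binding lectins activate, differed by 0.24 ± 0.10 (SE, adjusted p = 0.133) and 0.03 ± 0.05 (SE, adjusted p = 0.802) between HF_HF and HF_LF. Cfi, the protease that inactivates C4b, differed by 0.05 ± 0.07 (SE, adjusted p = 0.689), and C4bp, its cofactor, by 0.17 ± 0.09 (SE, adjusted p = 0.215). Fewer cells of a type and less RNA per cell cannot be told apart in RNA of whole liver, for these or any other members.

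F11 was the coagulation member with the lowest adjusted p in both post-weaning comparisons. It encodes a protease that activates F9. Its intensity was 2166 to 2968 (median 2570.5) in HF_HF mice, against 1293 to 2607 (median 1967) in HF_LF mice. Of the HF_LF mice, 7 of 9 lay below the lowest HF_HF mouse. With LF dams the intensity was 2241 to 3368 (median 2766) in LF_HF mice, against 1541 to 2433 (median 2067) in LF_LF mice. Both pairs of ranges overlapped. The log2 difference was 0.45 ± 0.11 (SE, 1.37-fold, adjusted p = 0.00730) in pups of HF dams and 0.43 ± 0.09 (SE, 1.35-fold, adjusted p = 0.0103) in pups of LF dams. In the first of these a second F11 probe rose as well (0.45, adjusted p = 0.0159), and another, near background at 116 units, gave 0.23 (adjusted p = 0.0777). Without cage 9 the call in pups of LF dams was lost, and without cage 21 or cage 23 that in pups of HF dams was lost.

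The other genes of the contact system gave intervals around 0 in pups of HF dams. The log2 difference was 0.06 (95% interval -0.06 to 0.19, adjusted p = 0.577) for F12, which starts the contact system, and 0.06 (95% interval -0.12 to 0.24, adjusted p = 0.741) for Klkb1, which encodes plasma prekallikrein. Kng1 encodes kininogen, the source of bradykinin, and its probes disagreed. The brightest, at a mean intensity of 25600, gave -0.03 (95% interval -0.14 to 0.08, adjusted p = 0.758). A dimmer one, at 8680 units, rose by 0.21 (adjusted p = 0.0441). The brightest value on any array was 32949.

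Among the genes of thrombin generation, F9 and F5 rose in pups of HF dams. F9 encodes the protease that activates F10, and its intensity was 5222 to 6959 (median 5757) in HF_HF mice, against 4481.5 to 5793 (median 5029.5) in HF_LF mice. All 10 HF_HF mice lay above the HF_LF median. The log2 difference of F9 was 0.20 ± 0.06 (SE, 1.15-fold, adjusted p = 0.0239). F5, the cofactor of F10, differed by 0.18 ± 0.06 (SE, 1.14-fold, adjusted p = 0.0496), and that call was lost in 21 of 25 fits that left out 1 mouse or cage. F9 was at 5464 to 6247 (median 5726) in LF_HF mice, against 4611 to 5837 (median 5239) in LF_LF mice, and differed by 0.16 (95% interval 0.04 to 0.27, adjusted p = 0.130). F7, which starts clotting with tissue factor, differed by 0.28 ± 0.10 (SE, adjusted p = 0.0804) in pups of HF dams. F10, which cuts prothrombin, differed by 0.01 ± 0.06 (SE, adjusted p = 0.969) there.

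F2 encodes prothrombin. It was at 3972 to 5322 (median 4863) in HF_HF, 3449.7 to 4899 (median 4256) in HF_LF, 3491.5 to 4557 (median 4044) in LF_HF and 2834.5 to 4770.0 (median 3884) in LF_LF mice. HF_HF mice were the brightest group by their median, and 7 of 10 lay above the highest LF_HF mouse. F2 was not called in any comparison. Its log2 difference was 0.25 (95% interval 0.11 to 0.39, adjusted p = 0.121) between HF_HF and LF_HF and 0.19 (95% interval 0.04 to 0.33, adjusted p = 0.0965) between HF_HF and HF_LF. With array weights, F2 was called in the HF_HF and HF_LF comparison.

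The 3 fibrinogen chains were read by probes of very different brightness. Fgg, the gamma chain, was at 5222 to 7029 (median 6194) in HF_HF mice, against 4172 to 6401 (median 5275) in HF_LF mice. After maternal LF it was 4899 to 6564 (median 5759) in LF_HF mice, against 3198 to 7198 (median 5014) in LF_LF mice. LF_LF mice were spread widely and held both the lowest and the highest Fgg value of the series. The log2 difference of Fgg was 0.24 ± 0.08 (SE, 1.18-fold, adjusted p = 0.0445) in pups of HF dams, a call lost in 18 of 25 fits that left out 1 mouse or cage. Between LF_HF and LF_LF it was 0.21 (95% interval -0.07 to 0.48, adjusted p = 0.467). Fga, the alpha chain, lay close to the top of the array's range, at 24124 to 29773 (median 27122) in HF_HF, 24124 to 29294 (median 26518) in HF_LF, 24772 to 28524 (median 27071) in LF_HF and 22989 to 29294 (median 26197) in LF_LF mice. The 4 ranges of Fga overlapped almost completely, and the log2 difference was 0.02 (95% interval -0.09 to 0.12, adjusted p = 0.894) between HF_HF and HF_LF. Fgb, the beta chain, was read by 1 dim probe at a mean intensity of 89.3, not far above the median of all values, 71.5. Its range was 73.3 to 132 (median 83.8) in HF_HF, 71.4 to 100.4 (median 81.3) in HF_LF, 64.1 to 126 (median 92.3) in LF_HF and 76.4 to 121.5 (median 87.4) in LF_LF mice. The log2 difference of Fgb between HF_HF and HF_LF was 0.08 (95% interval -0.11 to 0.26, adjusted p = 0.685). Values so near background understate a change, since background was not subtracted. F13b, which carries the enzyme that cross-links fibrin, differed by 0.13 ± 0.07 (SE, adjusted p = 0.234) in that comparison.

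Both members of fibrinolysis rose in pups of HF dams. Plg encodes plasminogen, the precursor of plasmin, and its intensity was 8636 to 12992 (median 10646) in HF_HF mice, against 8067 to 10026.5 (median 8677) in HF_LF mice. Of the HF_HF mice, 7 of 10 lay above the highest HF_LF mouse. Serpinf2, the inhibitor of plasmin, was at 6819 to 10674 (median 7736) in HF_HF mice, against 5716 to 7467 (median 6753) in HF_LF mice. It too had 7 of 10 HF_HF mice above the highest HF_LF mouse. Plg differed by 0.23 ± 0.07 (SE, 1.17-fold, adjusted p = 0.0397), a call lost in 16 of 25 fits that left out 1 mouse or cage, and Serpinf2 by 0.28 ± 0.08 (SE, 1.21-fold, adjusted p = 0.0221). All 3 probes of Serpinf2 and 2 of 3 probes of Plg were called as higher. Plg was at 9078 to 11393 (median 10056) in LF_HF mice, against 7292 to 10674 (median 9117) in LF_LF mice, a log2 difference of 0.17 (95% interval 0.04 to 0.31, adjusted p = 0.167). Serpinf2 was at 6540.4 to 10260.1 (median 8839) in LF_HF mice, against 6726 to 8855 (median 7198) in LF_LF mice there, a log2 difference of 0.21 (95% interval 0.02 to 0.40, adjusted p = 0.234).

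The anticoagulant genes were not called in any comparison. In pups of HF dams the log2 difference was 0.03 ± 0.07 (SE, adjusted p = 0.825) for Proc, which encodes protein C. It was -0.01 ± 0.09 (SE, adjusted p = 0.949) for Serpinc1, which encodes antithrombin, and 0.10 ± 0.08 (SE, adjusted p = 0.474) for Serpind1, a thrombin inhibitor that heparin activates. Ahsg encodes fetuin-A, an inhibitor of mineralization that was listed with the coagulation members and is no clotting factor. Its brightest probe, at a mean intensity of 26860, gave -0.09 ± 0.06 (SE, adjusted p = 0.378).

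**Figure D3:**
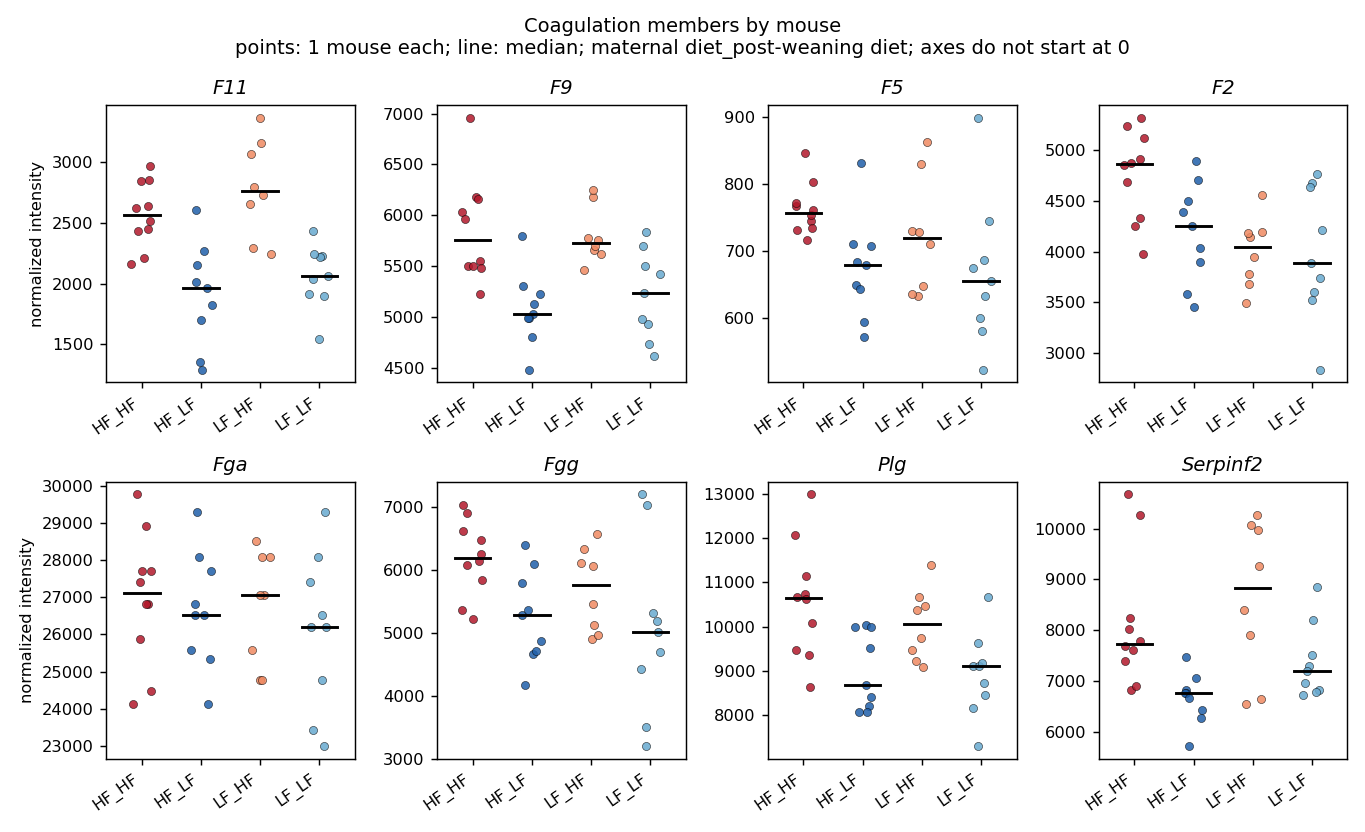
Normalized intensity of 8 coagulation members in each mouse (points) with the group median (line), for HF_HF, HF_LF, LF_HF and LF_LF; the axes do not start at 0. F11 is higher in most mice on HF than in mice on LF under either maternal diet, while the 4 groups overlap for Fga.

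The brightest probes gave small differences. The 3 brightest member genes (Ahsg, Fga and Kng1) had means of 25600 to 26860 units, close to the highest value of 32949, and log2 differences of -0.09 to 0.02 between HF_HF and HF_LF. For Kng1 a dimmer probe was called and the brightest was not. For Ahsg neither probe was called. After quantile normalization the arrays differed by at most 1 unit at the same rank. A value therefore followed the rank of a probe on its array, and 32949 is a normalized value and not a scanner reading. Whether normalization or the limit of the scanner made the differences of the brightest probes small was not tested.

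**Figure D4:**
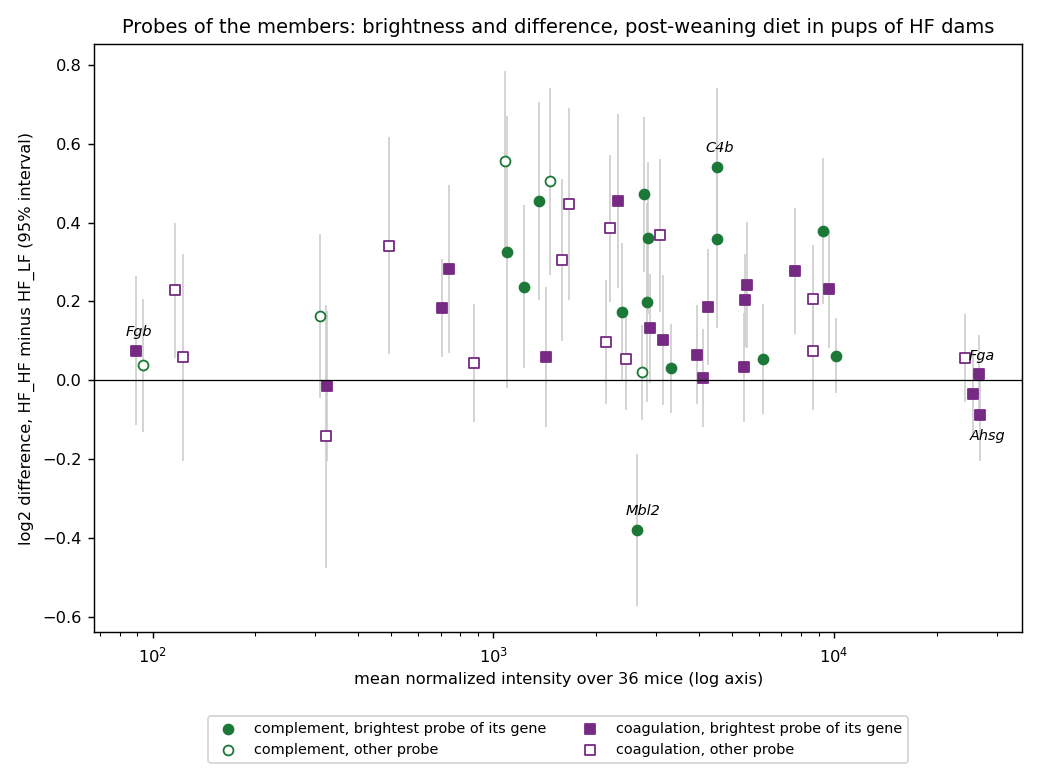
Log2 difference between HF_HF and HF_LF (vertical, with 95% interval) against mean normalized intensity over 36 mice (horizontal, log axis) for the tested probes of the 33 members. Filled symbols are the brightest probe of a gene and open symbols its other probes. The probes at 24210 to 26860 units lie near 0, and C4b and Mbl2 mark the highest and lowest brightest-probe differences.

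In pups of LF dams, fewer members were called for the same change of diet. Relative to LF_LF livers, C4b and F11 rose and Mbl2 fell in LF_HF livers. That makes 1 complement member that rose and 1 that fell of 14, and 1 coagulation member that rose and 0 that fell of 19. Over all tested probes 3.06% were called, 1.77% as higher and 1.29% as lower. The median log2 difference was 0.09 for complement members and 0.04 for coagulation members. Log2 differences were above 0 for 13 of 14 complement members and 14 of 19 coagulation members. With 1 mean per cage and group, or with cage as a fixed block, 0 members of either list were called. Those fits called 30 and 42 of all 12289 probes, against 376 in single mice.

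Whether the change of diet acted differently under the 2 maternal diets was tested by the interaction of maternal and post-weaning diet over all 36 mice. It called 0 members and 0% of tested probes. At an unadjusted p under 0.05 it held 776 of the 12289 probes but 0 members. Its estimate was above 0, a larger difference in pups of HF dams, for 12 of 14 complement members and 16 of 19 coagulation members. The medians were 0.10 and 0.05, against -0.003 for all tested probes. Members were read in the same mice, so these counts are not independent, and this lean was not tested. For the members called under both maternal diets, the interaction was -0.02 for Mbl2 (95% interval -0.26 to 0.22), 0.04 for C4b (-0.30 to 0.38) and 0.02 for F11 (-0.28 to 0.32). Being called under both diets favours a small interaction, so these values are no evidence of equal differences. Among members called only in pups of HF dams, the interaction ran from 0.03 for Fgg (-0.28 to 0.35) to 0.25 for C6 (-0.04 to 0.54). For C8a it was 0.22 (-0.12 to 0.57). The larger number of calls in pups of HF dams is therefore not shown to be a difference between maternal diets.

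The second question was whether the diet of the dam changed these genes when pups ate the same diet after weaning. Between HF_HF and LF_HF livers 0 of 33 members were called, against 0.269% of all tested probes. At an unadjusted p under 0.05 there were 2 complement members, Cfb and C8a, and 1 coagulation member, F2, all higher in HF_HF mice, beside 1354 of all 12289 probes at that level. A share of 3 of 33 members lies below that of all probes. C8a differed by 0.23 (95% interval 0.01 to 0.45, adjusted p = 0.433). The median log2 difference was 0.08 for complement members and 0.01 for coagulation members. Between HF_LF and LF_LF livers 0 of 33 members were called, and 0% of tested probes, with 803 of 12289 probes at an unadjusted p under 0.05. At that level there were 0 complement members and 2 coagulation members, F13b and Serpinf2, both lower in HF_LF mice. Serpinf2 differed by -0.14 (95% interval -0.27 to -0.02, adjusted p = 0.706) and F13b by -0.15 ± 0.07 (SE, adjusted p = 0.760). The median log2 difference was -0.05 for complement members and -0.02 for coagulation members. No member had groups that did not overlap in either maternal comparison, which 0.0651% of tested probes had between HF_HF and LF_HF and 0.0244% between HF_LF and LF_LF. Each comparison shares a group with 2 of the other 3, so their values are not independent of each other.

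Subunits and partners were also compared mouse by mouse. Each value was set as its deviation from the group mean, and 8 pairs were tested over the 36 mice by a two-sided permutation of mice within groups (100000 resamples). Cages were not part of the permutation, so mice of the same cage counted as independent. None of the 8 pairs passed an adjusted p of 0.05. C8a and C8b had r = 0.47 and rho = 0.44 (permutation p = 0.0154 and 0.0175, adjusted over the 8 pairs p = 0.0881 and 0.14). Without the 2 mice farthest from the median of C8a the correlation was r = 0.54 (34 mice, permutation, adjusted p = 0.0165). Within groups r of C8a and C8b was 0.49 in HF_HF, 0.39 in HF_LF, 0.64 in LF_HF and 0.40 in LF_LF mice. C8g had r = -0.19 to C8a and r = -0.14 to C8b (rho = -0.20 and -0.09, permutation p = 0.293 and 0.429 for r). Within groups these values differed in sign. For C8a and C8g r ran from -0.789 in LF_LF to 0.442 in HF_LF mice, and for C8b and C8g from -0.795 in LF_HF to 0.4 in HF_LF mice. Fga and Fgb had r = 0.36 and rho = 0.32, Fgb and Fgg r = 0.35 and rho = 0.33, and Fga and Fgg r = 0.22 and rho = 0.23 (permutation, adjusted p = 0.0881, 0.0881 and 0.391 for r). Mbl1 and Mbl2 had r = 0.15 and rho = -0.09, and Masp1 and Masp2 had r = 0.33 and rho = 0.30 (permutation, adjusted p = 0.445 and 0.125 for r). Over all pairs of the 12289 tested probes the median r was 0, with 5% below -0.37 and 5% above 0.38.

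The genes whose pattern was most like that of Fgb over the 36 mice were sought after group means were removed. These correlations are descriptions over mice that share cages and 1 normalization. Nearest to Fgb, by Pearson's r, were Cp (ceruloplasmin, r = 0.712), Slc41a2, a magnesium transporter (r = 0.707), Tnfrsf8, which encodes CD30 (r = 0.706), Tmem179b (r = 0.705) and Lbp (lipopolysaccharide-binding protein, r = 0.695). The Fgb probe itself was dim, as given above. Neighbours of 4 called members were also read, chosen after their values were seen. Nearest to C4b were Itih4 (r = 0.838), Sema4a (r = 0.832), Itih3 (r = 0.828), Hc (r = 0.799) and the member Plg (r = 0.787), where Itih4 and Itih3 encode heavy chains of the inter-alpha-trypsin inhibitor family. Nearest to F11 were Cyp7b1, an oxysterol hydroxylase (r = 0.804), Selenbp2 (r = 0.771), Serpina1e (r = 0.766), Hsd3b5, an enzyme of steroid metabolism (r = 0.722), and the member C8b (r = 0.707). The single nearest gene was F2 for Fgg (r = 0.757) and Ppp2r5c, a phosphatase subunit, for Mbl2 (r = 0.707).

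Other genes of both cascades, which are no members, were read beside them. Of 29 other complement genes listed, 15 were tested, and in pups of HF dams 3 rose and 1 fell. Hc, the fifth complement component, which starts the membrane attack complex, differed by 0.51 ± 0.09 (SE, adjusted p = 0.000829). Cpn2, a subunit of the enzyme that inactivates complement peptides, differed by 0.36 ± 0.08 (SE, adjusted p = 0.00511), and Serping1, which inhibits the first proteases of the classical pathway, by 0.24 ± 0.07 (SE, adjusted p = 0.0408). Cr1l, a regulator on cell surfaces, fell, with a log2 difference of -0.25 ± 0.07 (SE, adjusted p = 0.0194). Of 23 other coagulation genes listed, 14 were tested, and in pups of HF dams 3 rose and 0 fell. These were Fgl1, a fibrinogen-like protein of the liver, with 1.07 ± 0.23 (SE, adjusted p = 0.00389), Serpina10, the inhibitor that works with protein Z, with 0.68 ± 0.15 (SE, adjusted p = 0.00403), and Proz, protein Z itself, with 0.44 ± 0.08 (SE, adjusted p = 0.000929). In the other 3 comparisons and the interaction 0 genes of either list were called.

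Acute phase genes moved in the same comparison. In pups of HF dams 9 of 14 acute phase genes rose and 0 fell, with a median log2 difference of 0.78, and Fgl1 is in this list too. Between LF_HF and LF_LF 0 of 14 were called, with a median of 0.45 and all 14 above 0. Their mean log2 level per mouse was 10.44 to 12.91 in HF_HF, 10.14 to 11.16 in HF_LF, 10.29 to 12.40 in LF_HF and 10.15 to 11.99 in LF_LF mice. The intensity of Lcn2, lipocalin-2, was 207 to 21738.5 (median 822) in HF_HF mice, against 101 to 620.5 (median 128) in HF_LF mice. Of the LF_LF mice, replicate 6 stood apart at 11.99, with the next mouse at 10.31. Of the HF_LF mice, replicate 1 was the highest at 11.16, with the next at 10.48. Without LF_LF replicate 6 the members called in pups of LF dams stayed C4b, Mbl2 and F11, and without HF_LF replicate 1 those in pups of HF dams lost F5. The part of acute phase genes in the differences of complement and coagulation members was not tested.

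Hepatocyte genes were bright in every group. The 5 hepatocyte markers tested summed to 56062 to 69461 in HF_HF mice, against 57715 to 67985 in HF_LF mice. In that comparison 1 was above 0 and 4 were below, with a median log2 difference of -0.10, a lowest of -0.39 and 2 at an unadjusted p under 0.05, and 0 were called. Apoa1, of high-density lipoprotein, was at 24124 to 30234 (median 25773) in HF_HF mice, against 19050.1 to 27416 (median 25584) in HF_LF mice. Cps1, of the urea cycle, was at 7941 to 14495 (median 11175) in HF_HF mice, against 11329 to 14645.5 (median 12409) in HF_LF mice, and Ttr, transthyretin, at 19803 to 27416 (median 22792) in HF_HF mice, against 20793 to 27718.5 (median 24772) in HF_LF mice. None of the 6 macrophage markers tested was called. Of 7 endothelial markers tested, all 7 were below 0 in that comparison and 1 fell, with a summed intensity of 1366 to 1868 in HF_HF mice, against 1618 to 1951.5 in HF_LF mice. Of 8 neutrophil markers, 3 were tested and 0 called, with a summed intensity of 255 to 1214 in HF_HF mice, against 220.4 to 454 in HF_LF mice. All 3 were above 0 in that comparison, with a median log2 difference of 0.48 and 2 at an unadjusted p under 0.05. Between LF_HF and LF_LF all 3 were above 0 as well, with a median of 0.40 and 2 at that level. Of 6 megakaryocyte and platelet markers, 2 were tested and 0 called between HF_HF and HF_LF. There 1 was above 0 (0.02) and 1 below (-0.15), with 1 at an unadjusted p under 0.05. Pf4, the platelet factor, stayed near background in all groups, at 63.8 to 82.1. Of 5 stellate cell markers tested, 1 was above 0 and 4 were below between HF_HF and HF_LF, with a median of -0.09 and 0 called. The part of these cell types in the members' differences was not tested.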

How the data were processed

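The deposited values were signal intensities on a linear scale that the authors had exported from BeadStudio (named in the submitters' processing notes, version not given in the sources used here) after quantile normalization. Background had not been subtracted. They were taken to log2, and 12289 of 25697 probes were kept, those whose median over the 36 arrays reached the median of all values. Each comparison of 2 groups was fitted on its own mice with limma 3.58.1 (trended eBayes, R 4.3.3, statmod 1.5.0), the interaction on all 36 mice, and Benjamini-Hochberg adjustment ran over all kept probes at 5%. The procedure was tested on simulated data with independent noise for each mouse and no cage effect. That test therefore does not cover how cages affect the calls. Members and gene lists were chosen with earlier results of these data known. Called members, subunits of one complex and Cfb and F2 were named in full, and F5 in brief, and the others by range. Alternatives changed the filter, normalization, background, variance model, probe rule, cage handling and sample set. All 36 columns of values were used. The replicates are separate mice, and the number of arrays limits the precision.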

Additional observations from a re-analysis of the deposited data

Results flagged for a closer look

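Within each group of 8 to 10 mice, the highest or lowest mouse was checked for standing far from the others, in 64 groups of values. Chance alone marks about 1 in 20 such groups, and 3 were marked here. Fgb was 121.5 in LF_LF replicate 6, with the next LF_LF mouse at 94.9. The mean log2 level of 14 acute phase genes was 11.9902 in the same mouse, with the next LF_LF mouse at 10.31. That mean was 11.1551 in HF_LF replicate 1, with the next HF_LF mouse at 10.48. Without LF_LF replicate 6, the same 3 members (C4b, Mbl2 and F11) were called between LF_HF and LF_LF.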

How the results depend on the processing

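Under all alternatives, median log2 differences of both lists were counted as unchanged, by a rule that set shifts against the spread between mice. Their signs are not given here. Calls depended most on how cages were treated. With 1 mean per cage and group, post-weaning diet in pups of HF dams called 1 complement member (C4b) and 0 coagulation members beside 371 of 12289 probes, and in pups of LF dams 0 and 0 beside 30. With cage as a fixed block, 4 complement members (Mbl2, C4b, C6 and C8a) and 4 coagulation members (F11, Fgg, Serpind1 and Serpinf2) were called in pups of HF dams beside 890 probes, and 0 and 0 in pups of LF dams beside 42. Without a filter on dim probes, 2 coagulation members (F11 and Serpinf2) were called in pups of HF dams, and with array weights 4 complement members in pups of LF dams (C2 and C9 besides C4b and Mbl2). Leaving out 1 mouse or cage gave 1 to 3 complement and 0 to 2 coagulation members in pups of LF dams, and 3 to 8 complement and 0 to 6 coagulation members in pups of HF dams. The lowest counts in pups of HF dams came without cage 21, and the 0 in pups of LF dams without cage 9. The C4b call in pups of LF dams was lost without cage 6, 8, 9 or 11, and without any of 10 single mice. Cage 6 held only LF_LF replicate 7, so the fits without this cage and without this mouse are the same. The cause of these changes was not tested, and fits with fewer samples also hold fewer residual degrees of freedom. Counts for maternal diet and the interaction were 0 in all such fits. For C8a and C8b, r was 0.577 with no group means removed and 0.54 without 2 mice, both past the threshold. The first value also holds the differences between group means, so it does not measure covariation within groups alone. No paired analysis was possible because the replicate numbers only follow the order of accession. This covers pairing by replicate number alone, since some cages held both post-weaning diets and the fixed block compares mice within them.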
